A study of Mus musculus with 5 samples.

Results

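Nuclear receptors are transcription factors that many small, fat-soluble molecules switch on or off. The set described here holds 41 mouse genes of this superfamily, listed by name and family, among the 27179 genes of the table. It covers the receptors for thyroid hormone, retinoids, vitamin D, fatty acids, oxysterols, bile acids and steroids, the ROR receptors Rora and Rorb, and the orphan receptors without a settled hormone. All 41 were found by NCBI gene identifier. The Rev-erb and NR4A receptors are outside the list.

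Transcripts were counted in 5 libraries from 3 wild type mice of strain C57BL/6, in a study of the intestine. Group 3 innate lymphoid cells (ILC3), lymphocytes of mucosal tissue that lack rearranged antigen receptors, gave 3 libraries. They were sorted as CD3-negative, CD45-positive and CD127-positive cells carrying a green fluorescent lineage reporter. CD4 T cells, sorted as CD45+CD3+CD4+, gave 2 libraries and are called CD4 T here. No treatment, time or age is named for either group. Nothing ties a library to 1 of the mice, so the p-values cover the spread among these 5 libraries only, and that spread may be technical.

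A nuclear receptor binds DNA through a zinc-finger domain and binds its ligand through a separate domain. Ligand binding exchanges corepressors for coactivators. Steroid receptors act mainly as homodimers, and some, such as the glucocorticoid receptor, wait in the cytoplasm on chaperones. Receptors for retinoic acid, vitamin D, oxysterols, fatty acids and thyroid hormone sit on DNA as dimers with a retinoid X receptor (RXR), so the RXR genes serve many partners at once. ROR receptors bind DNA mainly as monomers. In lymphocytes of the gut, vitamin A and vitamin D signals, sterols and glucocorticoids all act through members of this superfamily.

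Depth ranged from 15123715 to 25956023 counts. Levels are counts per 1000000 (CPM) after TMM scaling, and a count of 0 allows up to 3 counts, or 0.108 to 0.192 CPM depending on the library. All 9 listed ILC3 markers passed as higher in ILC3, among them Il7r, whose product CD127 was used to sort these cells. Of 9 T cell markers 5 passed as lower in ILC3, among them Cd4 at 2.82 to 6.28 CPM against 142 and 90.1 CPM, while Cd3e and Cd3g overlapped between the groups. Over 7 B and plasma cell markers the summed level, nearly all from Jchain, was 18000 to 101000 CPM in ILC3 and 34400 and 21000 CPM in CD4 T. The libraries labelled CD4 T held transcripts of other cells beside T cells. Over 10 myeloid markers the summed level was 1720 and 2300 CPM there against 137 to 163 CPM in ILC3. Over 6 markers of plasmacytoid dendritic cells it was 2240 and 1690 CPM against 155 to 213 CPM. Over 6 markers of conventional dendritic cells it was 357 and 239 CPM against 98.6 to 133 CPM, with 3 called lower and 2 called higher in ILC3. Over 8 stromal and endothelial markers it was 43.6 and 35.3 CPM in CD4 T and 46.7 to 48.6 CPM in ILC3. Over 10 epithelial markers it was 1950 CPM in CD4 T replicate 2, 36.7 CPM in CD4 T replicate 1 and 11.3 to 15.4 CPM in ILC3, and Lyz1 alone was 1880 of the 1950 CPM. The part these cells have in the differences below was not tested, and in such bulk samples fewer cells of a type and less RNA per cell cannot be told apart.

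The promoters of the ROR receptors are shown because Rora was the receptor that passed the test and Rorb, its close relative, was close to 0. Each run is the 250 bases before 1 annotated start, from RefSeq on GRCm38.p6, written 5′ to 3′ on the strand of the gene, with CpG dinucleotides in capitals. Rora is at chr9:68653536-68653785 on the plus strand and Rorb at chr19:19111197-19111446 on the minus strand.
Rora: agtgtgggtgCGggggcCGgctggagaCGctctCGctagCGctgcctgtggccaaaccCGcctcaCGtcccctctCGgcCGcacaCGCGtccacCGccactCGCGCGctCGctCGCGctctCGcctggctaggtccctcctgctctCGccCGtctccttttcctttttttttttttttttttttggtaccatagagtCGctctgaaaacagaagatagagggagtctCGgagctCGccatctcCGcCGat
Rorb: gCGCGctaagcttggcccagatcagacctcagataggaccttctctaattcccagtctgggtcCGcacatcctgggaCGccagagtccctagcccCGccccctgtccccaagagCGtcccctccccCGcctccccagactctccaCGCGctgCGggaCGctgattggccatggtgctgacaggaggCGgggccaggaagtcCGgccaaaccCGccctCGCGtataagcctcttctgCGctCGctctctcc
The Rora window holds 26 CpG and the Rorb window 18, and the median over 32851 promoters of the table is 6. Neither holds the half-site AGGTCA, the DNA word that many nuclear receptors read, on either strand. Of all promoters, 14.0% hold it in the same 250 bases, and of 58 promoters of 37 listed receptors, 17.2%. Rorb has a further start in the table, and gene counts do not tell which start was used.

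Of the 41 receptors, 32 had at least 1 count and 9 had none in any library. A mean of 1 CPM or more in either group was reached by 15, and 15 passed the filter on low counts and were tested, though the sets differ. Rxra and Rarb were tested at lower means, and Nr1h3 and Hnf4a reached 1 CPM but were not tested. One of the 15 was called at an edgeR adjusted p under 0.05. This was Rora, higher in ILC3. Over all 12747 genes tested, 6.46% were called higher in ILC3 and 7.21% lower, or 824 and 919 genes, which became 384 and 1502 with library size alone. No receptor was called lower by edgeR in the fit of all 5 libraries with TMM scaling, or by limma-voom. In edgeR 1 receptor, Ppard, was called lower when unscaled library sizes were used or when CD4 T replicate 2 was left out. At an unadjusted edgeR p under 0.05, 3 were lower (Rxrb, Ppard and Nr6a1), beside 17.5% of all genes, and the DESeq2 Wald test called the same 3 lower. The median log2 difference, ILC3 minus CD4 T, was -0.46 over the 15 tested receptors and -0.10 over all genes tested. Without CD4 T replicate 2 these medians were 0.14 over 20 tested receptors and 0.04 over all genes.

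**Figure D1:**
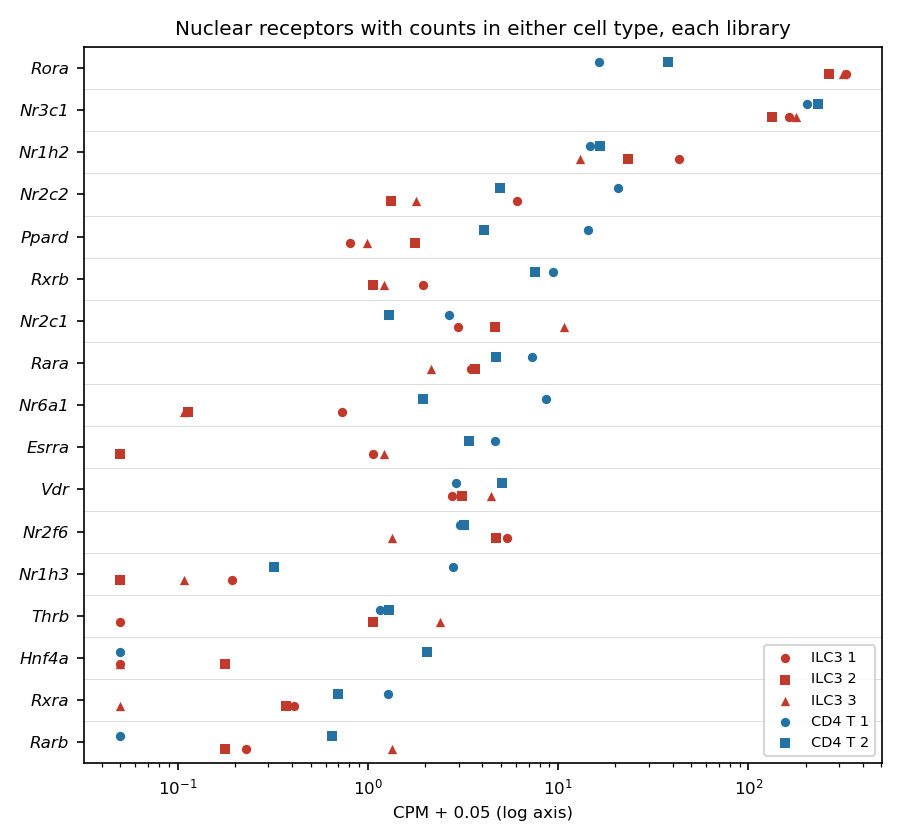
CPM plus 0.05 on a log axis for the 17 receptors that were tested or reached a mean of 1 CPM in a group, with 1 point for each of the 3 ILC3 (red) and 2 CD4 T (blue) libraries. Rora stands at 266 to 325 CPM in ILC3 and at 16.4 and 37.9 CPM in CD4 T, while Nr3c1 lies above 130 CPM in all 5 libraries.

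Rora encodes RORα, a receptor known from innate lymphoid development, T helper cells and the circadian clock. Its gene, over all annotated transcripts, lies on chromosome 9 from 68653404 to 69388246. The promoter shown precedes a start inside that span, so an annotated transcript begins further upstream. Rora stood at 325, 266 and 314 CPM in ILC3 replicates 1 to 3 and at 16.4 and 37.9 CPM in CD4 T replicates 1 and 2. Every ILC3 library was far above both CD4 T libraries, and the CD4 T libraries differed from each other more, as a ratio, than the ILC3 libraries did. ILC3 averaged 302 ± 31.7 CPM (SD, n = 3), against 27.2 ± 15.2 CPM for CD4 T (SD, n = 2). The fitted difference was 3.47 on the log2 scale (SE 0.461, edgeR adjusted p = 0.00831), an 11.1-fold higher level in ILC3. Rora passed in all 13 alternatives, at log2 differences from 3.00 to 4.21. The upper value came from leaving out CD4 T replicate 2.

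Rora is also known from ILC2. Of 6 ILC2 markers, 2 were called lower in ILC3 (Il1rl1 and Klrg1) and 0 higher. Il13 had no count in ILC3 and 1 count in CD4 T. Il5 was at 0.216, 0.192 and 0.117 CPM in ILC3 and 0.0396 and 0.0542 CPM in CD4 T, thus above CD4 T in each ILC3 library at 1 to 6 counts a library. The summed level was 151 to 228 CPM in ILC3 and 248 and 411 CPM in CD4 T, and most of it was Areg, which overlapped between the groups. These calls compare ILC3 with CD4 T and do not measure ILC2 among the sorted ILC3. Il1rl1 was 30.8 and 41.1 CPM and Klrg1 53.2 and 99.2 CPM in CD4 T. The part of ILC2 in the Rora value was not tested.

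Rorb, known mainly from retina, brain and pineal gland, had 0, 0 and 2 counts in ILC3 and 2 and 1 counts in CD4 T. It was at the level that a count of 0 allows in all 5 libraries. The Rev-erb gene Nr1d2, which represses at the DNA sites that ROR receptors activate and is not in the list, was higher in ILC3 by 1.66 on the log2 scale (SE 0.371, edgeR adjusted p = 0.0348). Its relative Nr1d1 had a log2 difference of 1.99 that did not pass (edgeR adjusted p = 0.083). The Nr1d2 call was lost without any 1 ILC3 library (edgeR adjusted p 0.0793 to 0.089), without CD4 T replicate 1 (0.0874) and with library size alone (0.0954).

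Nr3c1 encodes the glucocorticoid receptor, the steroid receptor through which cortisol-like hormones act on lymphocytes. It was 164, 133 and 177 CPM in ILC3 and 203 and 232 CPM in CD4 T. The libraries did not overlap, yet they lay close together. Means were 158 ± 22.8 CPM (SD, n = 3) and 218 ± 20.4 CPM (SD, n = 2). The log2 difference of -0.46 (SE 0.272) did not pass (edgeR adjusted p = 0.286, and 0.124 to 0.583 over the alternatives).

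The other steroid receptors were scarce. Nr3c2, the mineralocorticoid receptor, had 0, 8 and 0 counts in ILC3 and 2 and 5 in CD4 T. Esr1, estrogen receptor alpha, had 4, 0 and 15 counts in ILC3 and 5 and 6 in CD4 T. Esr2, estrogen receptor beta, and Pgr, the progesterone receptor, had no count in ILC3 and at most 1 in a CD4 T library.

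Among the RXR genes, which encode the shared dimer partners, Rxrb was the one with counts throughout. Rxrb was 1.91, 1.02 and 1.17 CPM in ILC3 and 9.39 and 7.53 CPM in CD4 T. Both CD4 T libraries were several times above every ILC3 library. The log2 difference was -2.62 (SE 0.775) and did not pass in edgeR (adjusted p = 0.0663), while the DESeq2 Wald test passed it (adjusted p = 0.0033). Rxra, the form that predominates in liver, skin and myeloid cells, was at 0.361, 0.32 and 0 CPM in ILC3 and 1.23 and 0.65 CPM in CD4 T (fitted difference -2.01 log2 units, SE 1.64, edgeR adjusted p = 0.442). Rxrg had 13 counts in ILC3 replicate 3, 1 in CD4 T replicate 1 and none elsewhere. Summed over the 3 RXR genes, the level was 1.35 to 2.27 CPM in ILC3 and 10.7 and 8.18 CPM in CD4 T.

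The retinoic acid receptors bind the vitamin A product that imprints gut homing on lymphocytes. Rara, the form known from blood cells, was 3.43, 3.59 and 2.1 CPM in ILC3 and 7.25 and 4.66 CPM in CD4 T. All 3 ILC3 libraries lay below both CD4 T libraries. The log2 difference of -0.97 (SE 0.763) did not pass (edgeR adjusted p = 0.425). Rarb was at 0.18, 0.128 and 1.29 CPM in ILC3 and 0 and 0.596 CPM in CD4 T, so its groups overlapped (fitted difference 0.84 log2 units, SE 2.03, edgeR adjusted p = 0.818). Rarg, the main form of skin, had 10, 0 and 1 counts in ILC3 and 0 and 4 in CD4 T.

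Vdr, the vitamin D receptor, was 2.71, 3.07 and 4.38 CPM in ILC3 and 2.85 and 5.04 CPM in CD4 T. The groups overlapped, and the fitted value was -0.22 log2 units (SE 0.83, edgeR adjusted p = 0.885). The xenobiotic receptors Nr1i2 (PXR) and Nr1i3 (CAR), which sense drugs in liver and gut, had 1 count between them, in CD4 T replicate 2.

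The PPAR genes encode sensors of fatty acids. Ppard, the broadly expressed form, was 0.758, 1.73 and 0.935 CPM in ILC3 and 14.3 and 4.01 CPM in CD4 T. Both CD4 T libraries were above every ILC3 library, but they differed from each other by more than 3 times. The log2 difference was -3.00 (SE 0.916, edgeR adjusted p = 0.0706). It passed without CD4 T replicate 2 (edgeR adjusted p = 0.0465), with library size alone (0.0417) and in the DESeq2 Wald test (0.00816), while leaving out CD4 T replicate 1 gave -1.80 (edgeR adjusted p = 0.47). Pparg, the adipocyte and macrophage form, had 29 counts in ILC3 replicate 1 and 0 to 2 counts in each other library. Ppara, the liver form, had no count in ILC3 and 1 and 2 counts in CD4 T.

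The thyroid hormone receptors stayed low. Thrb was at 0, 1.02 and 2.34 CPM in ILC3 and 1.11 and 1.25 CPM in CD4 T (fitted difference -0.08 log2 units, SE 1.89, edgeR adjusted p = 0.983), so the ILC3 libraries lay on both sides of the CD4 T libraries. Thra had 2, 1 and 35 counts in ILC3 and 2 and 1 in CD4 T. The Thra gene overlaps Nr1d1, and as the strand setting of the counting is not given in the sources used here, reads of such neighbours cannot be told apart. The same limit holds for 7 receptors that overlap a protein-coding gene, 4 of them tested: Thrb, Rara, Esrra (with Trmt112) and Nr2c2 (with Mrps25).

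The oxysterol receptors, called LXR, turn on cholesterol export genes. Nr1h2, which encodes the broadly expressed LXRβ, was 43.1, 23.2 and 13 CPM in ILC3 and 14.6 and 16.5 CPM in CD4 T. ILC3 replicates 1 and 2 lay above the CD4 T libraries and replicate 3 below them. The log2 difference of 0.77 (SE 0.553) did not pass (edgeR adjusted p = 0.383), and it was 0.21 without ILC3 replicate 1. Nr1h3, which encodes LXRα and is known from macrophages and liver, had 4, 0 and 1 counts in ILC3 and 70 and 5 in CD4 T. Its level was thus carried by CD4 T replicate 1, at 2.77 CPM against 0.271 CPM in replicate 2. The macrophage gene Adgre1 (128 and 59 CPM) was likewise higher in CD4 T replicate 1 than in replicate 2. Other myeloid markers went the opposite way, with Lyz2 at 659 and 1590 CPM, Cd68 at 53.1 and 160 CPM and the sum over the 10 markers at 1720 and 2300 CPM. The part of myeloid RNA in the Nr1h3 value was not tested. The Nr1h3 gene overlaps Acp2. Nr1h4, the bile acid receptor FXR, had no count.

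Of the orphan receptors with counts, Nr2c1 and Nr2c2 encode the testicular receptors TR2 and TR4, which pair with each other. Nr2c1 was 2.92, 4.61 and 10.7 CPM in ILC3 and 2.62 and 1.25 CPM in CD4 T. Nr2c2 was 6.06, 1.28 and 1.75 CPM in ILC3 and 20.5 and 4.93 CPM in CD4 T. The fitted log2 differences had opposite signs, 1.65 (SE 0.955) for Nr2c1 and -2.06 (SE 0.966) for Nr2c2, and neither passed (edgeR adjusted p = 0.277 and 0.189). The difference between the 2 genes was not tested. Without CD4 T replicate 1 Nr2c2 differed by -0.69 on the log2 scale, and without ILC3 replicate 1 by -3.07.

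Nr6a1, the germ cell nuclear factor, was at 0.686, 0.0641 and 0.0585 CPM in ILC3 and 8.56 and 1.9 CPM in CD4 T (fitted difference -4.20 log2 units, SE 1.52, edgeR adjusted p = 0.107). The difference was -2.75 log2 units without CD4 T replicate 1 and -6.28 without ILC3 replicate 1. Esrra, the estrogen-related receptor that serves mitochondrial genes, was 1.01, 0 and 1.17 CPM in ILC3 and 4.64 and 3.36 CPM in CD4 T (fitted difference -2.44 log2 units, SE 1.6, edgeR adjusted p = 0.336). Nr2f6, an inhibitory orphan receptor of T cells, was 5.34, 4.68 and 1.29 CPM in ILC3 and 3.01 and 3.14 CPM in CD4 T, with overlapping groups (fitted difference 0.29 log2 units, SE 0.957, edgeR adjusted p = 0.866), and the difference was -0.16 with library size alone.

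Apart from the calls, the tested receptors were counted by whether the groups overlapped. For 7 of the 15, all 3 ILC3 libraries lay below both CD4 T libraries, as they did for 29.6% of all genes tested. For 2 of the 15, Rora and Nr2c1, all ILC3 libraries lay above, against 25.5% of all genes. The other 6 overlapped.

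**Figure D2:**
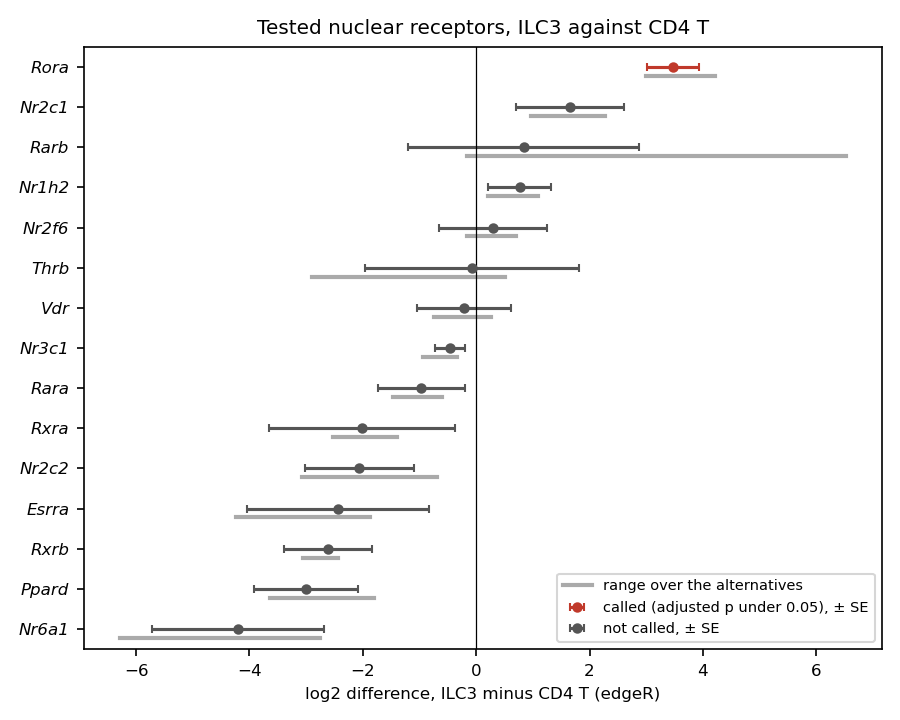
Log2 difference, ILC3 minus CD4 T, with its standard error for the 15 tested receptors (points) and the range of the same difference over the alternatives (grey bars). Rora, in red, is the called receptor at 3.47, and Nr6a1 is lowest at -4.20 with a standard error of 1.52.

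Receptors below the filter were uneven between libraries. Of the 26 that were not tested, 17 had some counts, and 10 of these had at least 10 counts in all. In 7 of the 10, a single library held over 70% of the summed CPM. That library was not a fixed one. Among these 10 receptors the highest level was in ILC3 replicate 1 for 2, in ILC3 replicate 2 for 3, in ILC3 replicate 3 for 3 and in each CD4 T library for 1. Thra (35 counts) and Rxrg (13) peaked in ILC3 replicate 3, Esrrg (14) and Nr2f2 (12) in ILC3 replicate 2, and Pparg (29) in ILC3 replicate 1. Esrrg had no count outside that library.

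**Figure D3:**
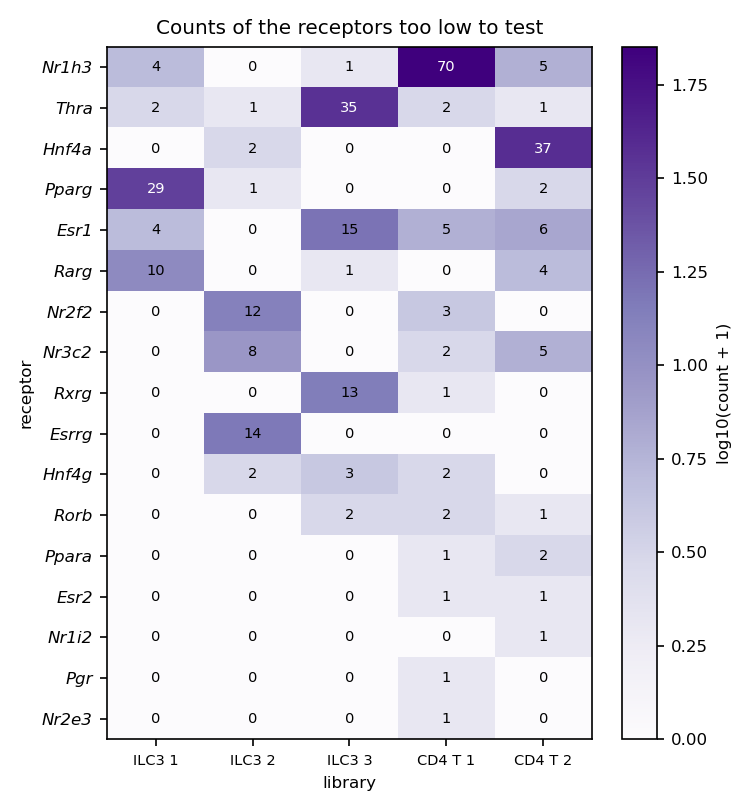
Deposited counts of the 17 receptors that were counted but too low to test, by library, with the shade giving log10 of the count plus 1. Nr1h3 has 70 counts in CD4 T replicate 1 and Hnf4a 37 in CD4 T replicate 2, and most other cells hold 0 to 5.

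Hnf4a, the hepatocyte nuclear factor that maintains intestinal epithelium, had 37 counts in CD4 T replicate 2, 2 in ILC3 replicate 2 and none in the other libraries. The epithelial markers Muc2 (15.2 CPM), Krt8 (7.91 CPM), Krt18 (9.91 CPM) and Lyz1 (1880 CPM) were also highest in CD4 T replicate 2. Krt8, Krt20, Cdh1 and Fabp2 had no count in ILC3. The part of epithelial RNA in the Hnf4a value was not tested. Its relative Hnf4g, also known from gut epithelium, had at most 3 counts in any library.

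The 9 receptors without a count were Nr1i3, Nr1h4, Esrrb, Nr2e1, Nr2f1, Nr5a1, Nr5a2, Nr0b1 and Nr0b2. They are known from liver, the steroid-making glands, eye, brain and stem cells, and were not detectable at this depth.

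Levels of different genes were compared per kilobase of exon (CPM per kb), since longer transcripts yield more counts. In ILC3 the order was Rora at 26.8 ± 2.82, Nr3c1 at 24.2 ± 3.49 and Nr1h2 at 13.2 ± 7.62 CPM per kb (SD, n = 3), followed by Nr2f6 at 1.70 ± 0.98 and Nr2c1 at 1.32 ± 0.888. The means of Rora and Nr3c1 did not differ beyond their spread. Rora was ahead in each ILC3 library, by ratios of 1.16, 1.16 and 1.03, and this difference was not tested. Lengths were the joined annotated exons of each gene, 11245 bases for Rora and 6541 for Nr3c1. The transcripts present may be shorter, so the order may depend on the length used. Nr1h2 ran from 21.5 CPM per kb in replicate 1 to 6.5 in replicate 3. In CD4 T, Nr3c1 led at 33.3 ± 3.12 CPM per kb (SD, n = 2), ahead of Nr1h2 at 7.75 ± 0.68. Rxrb at 2.93 ± 0.457, Ppard at 2.79 ± 2.21 and Rora at 2.42 ± 1.35 followed and did not differ beyond their spread.

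Rora, Nr3c1 and Nr1h2 together made up 88.8% to 91.0% of the summed CPM per kb of all 41 receptors in ILC3 and 66.8% and 80.3% in CD4 T. Rora alone was 34.9%, 38.1% and 40.3% in the ILC3 libraries and 2.46% and 5.75% in the CD4 T libraries. The summed CPM of the receptors other than Rora was 180 to 234 in ILC3 and 297 and 290 in CD4 T. Among the 41 listed receptors, Rora, Nr3c1 and Nr1h2 thus held most of the summed CPM per kb in both groups. The rest held a larger share in the CD4 T libraries. These shares leave out the Rev-erb and NR4A receptors. Those 5 genes summed to 490, 457 and 552 CPM in ILC3 and 252 and 312 CPM in CD4 T. The 41 listed receptors summed to 559, 446 and 536 CPM in ILC3 and 313 and 328 CPM in CD4 T.

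**Figure D4:**
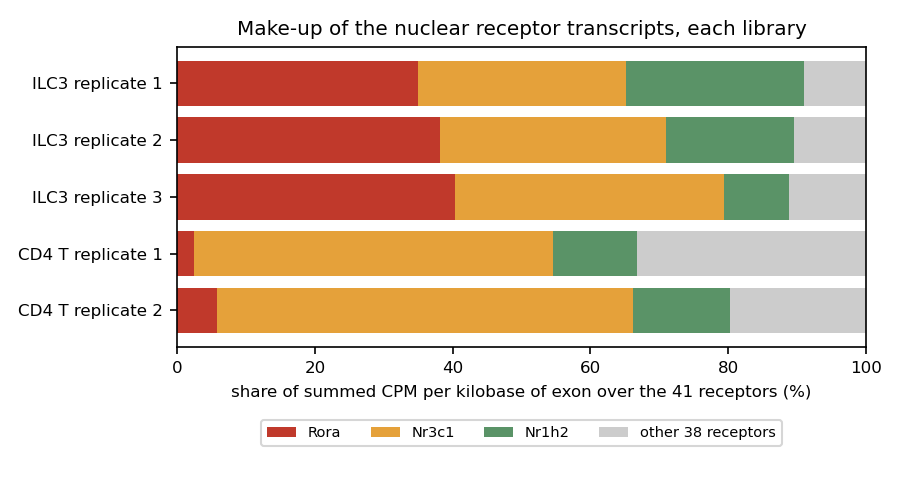
Share of the summed CPM per kilobase of exon over the 41 receptors taken by Rora, Nr3c1, Nr1h2 and all others, with 1 bar for each library. Rora takes 34.9% to 40.3% in ILC3 and 2.46% and 5.75% in CD4 T.

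Nuclear receptors act through coregulators. Of 31 tested coregulator genes, 3 were higher and 1 lower in ILC3, with a median log2 difference of 0.18. Over all genes tested, 6.46% were higher, 7.21% were lower and the median was -0.10, so the coregulator counts are near that background. Ncoa7, named as a nuclear receptor coactivator and also known from oxidative stress responses, was 432, 424 and 443 CPM in ILC3 and 14.1 and 19.7 CPM in CD4 T. Its groups were far apart (fitted difference 4.68 log2 units, SE 0.351, edgeR adjusted p = 0.00155), and it passed in all 13 alternatives. Of 10 corepressor genes 1 was higher and 0 lower. This was Lcor, a ligand-dependent corepressor, at 3.36, 4.1 and 2.4 CPM in ILC3 with 1 count in each CD4 T library, a ratio of 71.6 (exact 95% interval from counting error 19.6 to 595). It passed by edgeR at an adjusted p of 0.0406. The Lcor call was lost without any 1 of the 5 libraries (edgeR adjusted p 0.0674 to 0.138).

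Ncoa3, a coactivator of the p160 family, was 19.6, 21.5 and 16.1 CPM in ILC3 and 54 and 42.1 CPM in CD4 T. It was lower in ILC3 at -1.33 log2 units (SE 0.316, edgeR adjusted p = 0.0406). The call did not hold without any 1 ILC3 library or CD4 T replicate 1 (edgeR adjusted p 0.101 to 0.133). The main corepressor Ncor1 was 158, 120 and 155 CPM in ILC3 and 85.8 and 89.8 CPM in CD4 T and did not pass (fitted difference 0.72 log2 units, edgeR adjusted p = 0.126). Ncor1 was named after its values were seen.

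Of 8 chaperone genes that hold steroid receptors, 1 was higher and 0 lower. Hspa8, the constitutive HSP70, was 150, 134 and 129 CPM in ILC3 and 4 and 22.7 CPM in CD4 T (fitted difference 3.37 log2 units, SE 0.743, edgeR adjusted p = 0.0335). Without CD4 T replicate 2 its log2 difference was 5.12 and without replicate 1 it was 2.61. The call was lost without any 1 ILC3 library (edgeR adjusted p 0.0685 to 0.0849).

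Genes that the receptors are known to control were read next to the receptors. Over the ligand metabolism and target lists, 4 of 38 tested genes were higher and 5 lower in ILC3, with a median log2 difference of -0.42, beside 6.46% higher, 7.21% lower and a median of -0.10 over all genes tested. The retinoid, glucocorticoid and fatty acid lists below, and the chaperones above, had 1 or 2 calls each in 7 to 10 tested genes, too few to read against that background. All 5 lower genes were oxysterol receptor targets, a list in which 0 of 11 tested members were higher and whose median log2 difference was -2.02.

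Apoe, which carries cholesterol in lipoproteins, was 106, 130 and 114 CPM in ILC3 and 1870 and 2350 CPM in CD4 T. No ILC3 library came near the CD4 T libraries. The log2 difference was -4.18 (SE 0.305, edgeR adjusted p = 0.00151). Arl4c, a small GTPase gene, was 3.39, 6.34 and 4.15 CPM in ILC3 and 106 and 51.7 CPM in CD4 T (fitted difference -4.10 log2 units, SE 0.47, edgeR adjusted p = 0.00537). It was lower in every ILC3 library than in either CD4 T library, and without CD4 T replicate 1 its log2 difference was -3.48. Apoe and Arl4c passed in all 13 alternatives.

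Abca1, a cholesterol exporter, was 8.59, 12 and 3.45 CPM in ILC3 and 82.8 and 37.7 CPM in CD4 T (fitted difference -2.91 log2 units, SE 0.601, edgeR adjusted p = 0.0276). The exporter Abcg1 was 4.87, 5.96 and 5.03 CPM in ILC3 and 21.8 and 21.2 CPM in CD4 T (fitted difference -2.02 log2 units, SE 0.452, edgeR adjusted p = 0.0347). Srebf1, a regulator of fatty acid synthesis named here after its values were seen, differed by -2.46 log2 units (edgeR adjusted p = 0.0452). These 3 calls were less firm. Without any 1 ILC3 library, Abca1 had edgeR adjusted p from 0.0503 to 0.0852, and without CD4 T replicate 1 it was 0.142, with a log2 difference of -2.23. Abcg1 and Srebf1 lost the call without any 1 of the 5 libraries (edgeR adjusted p from 0.055 to 0.0996 and from 0.0526 to 0.135). Smpdl3a, another listed target, went the other way at 217, 186 and 173 CPM in ILC3 and 116 and 144 CPM in CD4 T, and did not pass (edgeR adjusted p = 0.209). Scd2 lay lower in every ILC3 library and did not pass (edgeR adjusted p = 0.393). Myeloid markers moved the same way as the called targets. All 10 lay lower in every ILC3 library than in both CD4 T libraries, 8 were called lower, and Cd33 and Clec10a had no count in ILC3. Their part in the oxysterol target values was not tested. None of 13 promoters of 8 listed oxysterol genes in the table holds AGGTCA in its 250 bases, on either strand, beside 14.0% of all promoters. A search for 1 exact word in so few promoters cannot tell whether receptor sites are present. Variant or more distant sites were not looked for. The 8 genes include the receptor gene Nr1h3, and Abcg1, Smpdl3a, Scd1 and Scd2 had no promoter entry.

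**Figure D5:**
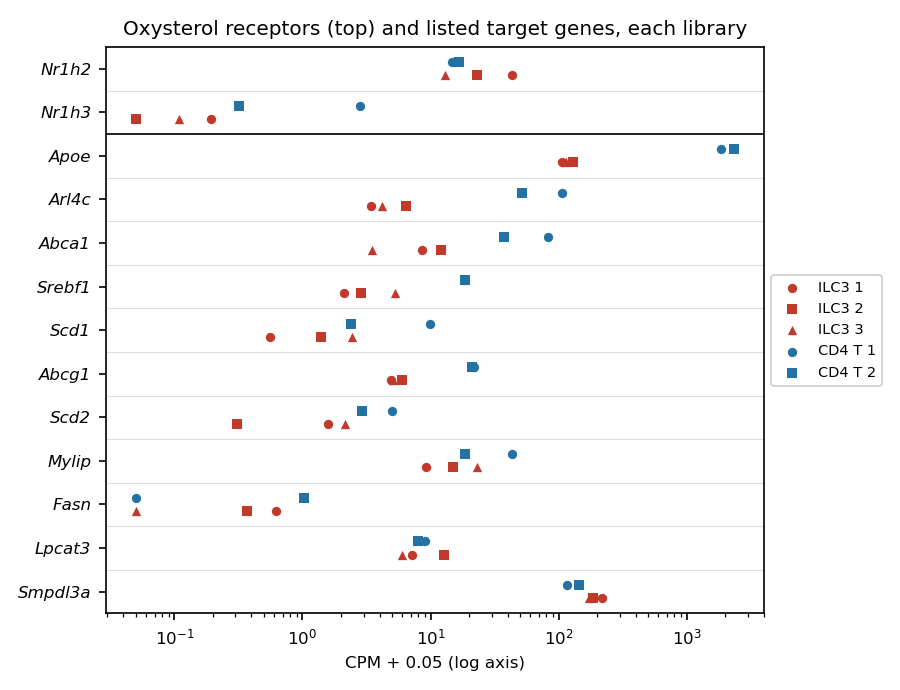
CPM plus 0.05 on a log axis for the oxysterol receptors Nr1h2 and Nr1h3 (above the line) and 11 listed target genes, with 1 point for each library. Apoe, Arl4c, Abca1, Srebf1, Abcg1 and Scd2 are lower in every ILC3 library (red) than in CD4 T (blue), Smpdl3a is higher, and Nr1h2 overlaps at 13 to 43.1 CPM in ILC3 and 14.6 and 16.5 CPM in CD4 T.

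Among retinoid genes, 1 of 7 tested was higher and 0 lower. Dhrs3, which turns retinaldehyde back into retinol, was 68, 71.1 and 83.4 CPM in ILC3 and 27.3 and 34.8 CPM in CD4 T (fitted difference 1.26 log2 units, SE 0.294, edgeR adjusted p = 0.0393). The call was lost without any 1 ILC3 library or CD4 T replicate 1 (edgeR adjusted p 0.0936 to 0.104) and with library size alone (0.196). The retinoic acid breakdown genes Cyp26a1 and Cyp26b1 and the retinol importer Stra6 had no count in any library. Of 4 vitamin D genes, 1 was tested and none called. Cyp2r1, a vitamin D 25-hydroxylase, was 6.78, 4.55 and 0.409 CPM in ILC3 and 7.49 and 3.09 CPM in CD4 T, with overlapping groups (fitted difference -0.43 log2 units, edgeR adjusted p = 0.838). Cyp27b1, which makes the active hormone, had 74 counts in ILC3 replicate 1 and none elsewhere.

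Glucocorticoid receptor targets had 2 of 10 tested members higher and 0 lower. Cdkn1a, a cell cycle inhibitor with many other regulators, was 424, 346 and 300 CPM in ILC3 and 101 and 76.4 CPM in CD4 T (fitted difference 2.01 log2 units, SE 0.323, edgeR adjusted p = 0.0135). It no longer passed when ILC3 replicate 2 was left out (edgeR adjusted p = 0.052) or when library size alone was used (0.0541). Zbtb16, which encodes the innate lymphocyte factor PLZF, had 72, 23 and 28 counts in ILC3 and none in CD4 T, at least 29.6-fold higher against 3 counts over the CD4 T libraries (edgeR adjusted p = 0.04995). Without any 1 of the 5 libraries its edgeR adjusted p was 0.0818 to 0.157. The glucocorticoid-induced genes Tsc22d3 (fitted difference 1.00 log2 units, edgeR adjusted p = 0.0871) and Fkbp5 (fitted difference -1.09 log2 units, edgeR adjusted p = 0.275), named after their values were seen, did not pass.

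Fatty acid receptor targets had 1 of 9 tested members higher and 0 lower. Acadm, the medium-chain acyl-CoA dehydrogenase of fatty acid oxidation, was 78.7, 62.5 and 76.9 CPM in ILC3 and 17 and 15 CPM in CD4 T. Its groups were well separated (fitted difference 2.18 log2 units, SE 0.306, edgeR adjusted p = 0.00973), but the call was lost with the replicate number as a block. Pdk4, another common target of these receptors, had 1 count in all, in ILC3 replicate 1.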

How the data were processed

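The deposited table holds whole-number counts per NCBI gene identifier, with no normalization, made by the authors from 5 libraries. The submitters' processing notes name CASAVA 1.8.2, STAR 2.3.0 and mm10. Not given in the sources used here: the counting tool, its annotation and whether it used strand. Libraries used the SMARTer Ultra Low Input kit, per the labels' protocols, and amplified reads are not independent molecules, so counting intervals and floors cover counting error only. RefSeq (GRCm38.p6) gave symbols to 25275 of 27179 identifiers, and the other 1904 stayed in the fits. GENCODE M21 gave exon lengths.

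The test was edgeR 4.0.16 under R 4.3.3, on the counts as deposited (filterByExpr by group, TMM, quasi-likelihood F test, 3 residual degrees of freedom, no covariate), adjusted by Benjamini-Hochberg over all 12747 genes tested and called under 0.05. The SE is the log2 difference over the square root of F. Library pairs differed by more than sampling noise (chi-square per degree of freedom at least 234). The fit was tested on simulated data.

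The alternatives were RLE, upper quartile and unscaled library sizes, no filter, 1 CPM in 2 libraries, DESeq2 1.42.0, limma-voom (limma 3.58.1), leaving out each library, and a replicate block. The members and lists were chosen with earlier results of these data known. Receptors reaching 1 CPM in either group are named with each library's value. From each other list the called members with the lowest p are named, 4 at most, or the 2 highest by level where none is called. Marker lists are given by counts or sums, and the single markers and uncalled list genes named were chosen after their values were seen.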

Additional observations from a re-analysis of the deposited data

How the results depend on the processing

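Rora was called higher under all 13 alternatives, and its count of 1 receptor called higher did not change. The count called lower, 0, became 3 in the DESeq2 Wald test and 1 with library size alone, and ranged from 0 to 1 when 1 library was left out. All genes called higher and lower, 824 and 919, became 384 and 1502 with library size alone, 1914 and 1858 in the DESeq2 Wald test and 1317 and 1402 in limma-voom, and 1250 were higher with no filter. With 1 library left out they ranged from 269 to 1712 higher and from 306 to 960 lower. Library size alone shifted the median log2 difference of all genes from -0.10 to -0.60, and 20.4% of calls were higher in place of 47.3%.

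Coregulators called higher, 3, became 8 in the DESeq2 Wald test and 5 in limma-voom, and ranged from 1 to 5 with 1 library left out. Those called lower, 1, became 4 with library size alone, 2 with no filter, 4 in the DESeq2 Wald test and 3 in limma-voom, and ranged from 0 to 2. Ligand metabolism and target genes called higher, 4, became 1 with library size alone and 7 in the DESeq2 Wald test, and ranged from 1 to 6. Those called lower, 5, ranged from 2 to 4 with 1 library left out.

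With the replicate number as a block, all genes called fell to 215 higher and 305 lower, receptors stayed at 1 and 0, coregulators were 1 and 0, and ligand metabolism and target genes 0 and 2. The numbers do not pair the samples by the labels. Deviations of same-numbered libraries from their group means correlated at -0.039 and -0.0415. The 2 CD4 T libraries deviate from their mean as mirror images, so these values cannot show whether libraries are paired. The sign of small differences that did not pass turned in some alternatives. With library size alone Nr2f6 was -0.158 and Nr4a3, an NR4A receptor outside the list, -0.0602, and with the replicate block Cyp2r1 was 0.21. With 1 library left out, log2 differences ranged from -1.22 to 0.50 for Thrb, -0.16 to 6.52 for Rarb, -0.57 to 0.26 for Vdr, -0.0564 to 0.70 for Nr2f6, -1.10 to 0.35 for Cyp2r1, -0.17 to 0.000516 for Nr4a1 and -0.62 to 3.69 for Nr4a3. The causes were not tested. Below 1 CPM, single libraries decided most values.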
